A study of Mus musculus with 12 samples.

Results

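Cornification is the last step of keratinocyte differentiation, and 8 mouse genes of it are described here by the accessibility of their chromatin: the transglutaminases Tgm1, Tgm3 and Tgm5, the protease Casp14, the lipid transporter Abca12, and the secreted proteins Krtdap, Sbsn and Dmkn. A peak was given to a gene when its midpoint lay in the gene's mm10 span or within 50 kb of it and no protein-coding gene was nearer. The 8 genes held 106 of 177240 peaks: 30 at Abca12, 28 at Tgm3, 11 at Casp14, 10 at Tgm5, 6 at Tgm1 and 7 each at Krtdap, Sbsn and Dmkn. The rule uses position alone. On mm10 the genes span chr1:71243090-71414910 (Abca12), chr2:121046111-121085841 (Tgm5), chr2:129987794-130050399 (Tgm3), chr7:30732674-30756134 (Sbsn), chr7:30763756-30781066 (Dmkn), chr7:30787905-30791089 (Krtdap), chr10:78711995-78718347 (Casp14) and chr14:55700009-55713921 (Tgm1).

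Open DNA was read by ATAC-seq, which uses the transposase Tn5 to cut it and tag it with adaptors, in 6 samples of 5 groups; every sample has 1 single-end and 1 paired-end run. Wild-type mice gave normal hair follicle (HF, 1 sample) and normal interfollicular epidermis (IFE, 1 sample). The tumour samples all carried p53fl/fl and Rosa-YFP+/+, floxed p53 and a fluorescent reporter, which CreER recombines where its promoter is active. K14CreER, driven by a keratin promoter of basal keratinocytes, gave the single K14 Epcam+ sample, labelled by origin as interfollicular epidermis. Lgr5CreER, driven by a promoter active in follicle stem cells, gave 2 Lgr5 Epcam+ samples and 1 Lgr5 Epcam- sample, labelled as hair follicle. Cells were sorted with antibodies to Epcam, an epithelial surface protein, and to CD45, CD31 and CD140a, which mark leukocytes, endothelium and fibroblasts. All samples came from females of mixed strain. The sources used here do not give age, the gates of the sort or the number of animals per sample. The 2 Lgr5 Epcam+ samples may thus share an animal. The p-values rest only on the spread between them, which the test partly shares over all features.

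In the living layers of the epidermis, keratinocytes move outward, stop dividing and replace their membrane by a protein and lipid shell. Transglutaminases form isopeptide bonds between shell proteins such as loricrin and involucrin. Abca12 loads lipid into the lamellar granules whose contents seal the spaces between dead cells, and Casp14 takes part in the breakdown of filaggrin. Krtdap, Sbsn and Dmkn are small secreted proteins of the suprabasal layers whose genes lie side by side. Together they span 58.4 kb of chromosome 7 from the lower end of the Sbsn gene span to the end of Krtdap, with 21 peaks. The annotated Sbsn start used below lies inside that gene span, at chr7:30751471.

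The annotated starts of this cluster are shown because the peaks over them do not share 1 order over the samples. Those of Casp14 and Tgm5 are shown as examples of starts whose peaks were highest in 1 normal tissue. The start peaks of Tgm3 and Abca12, whose windows are not shown, were also highest in 1 normal tissue, IFE. The 250 bases before each RefSeq start (GRCm38.p6, the assembly that mm10 names) are written 5′ to 3′ on the gene's strand, and capitals mark TGANTCA, the AP-1 motif, which reads the same on both strands. They are Sbsn at chr7:30751221-30751470, the first start of Dmkn at chr7:30763506-30763755, an internal start of Dmkn at chr7:30776155-30776404 and Krtdap at chr7:30787655-30787904, all on the plus strand, and Casp14 at chr10:78718294-78718543 and Tgm5 at chr2:121085842-121086091 on the minus strand.
Sbsn: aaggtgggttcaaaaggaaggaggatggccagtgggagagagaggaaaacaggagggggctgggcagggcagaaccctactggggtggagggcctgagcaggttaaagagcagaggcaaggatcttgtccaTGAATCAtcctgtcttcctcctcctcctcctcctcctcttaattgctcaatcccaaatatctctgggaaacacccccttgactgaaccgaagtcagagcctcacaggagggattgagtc
Dmkn, first start: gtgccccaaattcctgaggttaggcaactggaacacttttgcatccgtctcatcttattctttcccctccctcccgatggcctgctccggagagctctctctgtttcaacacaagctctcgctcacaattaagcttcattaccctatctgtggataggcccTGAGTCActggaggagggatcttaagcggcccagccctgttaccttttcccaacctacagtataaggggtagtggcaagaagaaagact
Dmkn, internal start: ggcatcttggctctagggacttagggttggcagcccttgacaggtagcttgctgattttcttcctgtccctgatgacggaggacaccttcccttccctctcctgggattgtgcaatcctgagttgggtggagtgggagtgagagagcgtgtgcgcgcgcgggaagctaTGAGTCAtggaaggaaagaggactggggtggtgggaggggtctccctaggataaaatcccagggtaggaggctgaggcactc
Krtdap: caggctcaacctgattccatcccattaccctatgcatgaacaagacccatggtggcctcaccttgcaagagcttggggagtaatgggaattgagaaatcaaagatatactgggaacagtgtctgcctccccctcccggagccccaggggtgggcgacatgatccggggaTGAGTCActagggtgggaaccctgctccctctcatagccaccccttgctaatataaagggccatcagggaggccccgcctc
Casp14: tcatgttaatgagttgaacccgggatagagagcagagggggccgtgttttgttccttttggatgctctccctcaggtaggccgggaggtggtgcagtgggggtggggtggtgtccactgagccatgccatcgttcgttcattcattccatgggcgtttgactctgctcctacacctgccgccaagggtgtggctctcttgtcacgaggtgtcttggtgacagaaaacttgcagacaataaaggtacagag
Tgm5: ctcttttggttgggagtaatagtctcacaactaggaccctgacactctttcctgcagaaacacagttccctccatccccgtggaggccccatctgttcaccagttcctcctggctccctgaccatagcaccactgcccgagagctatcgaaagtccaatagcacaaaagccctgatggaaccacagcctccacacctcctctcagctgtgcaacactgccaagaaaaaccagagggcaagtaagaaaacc
TGANTCA stood in all 4 cluster windows, 119 bases before the Sbsn start, 89 and 82 bases before the first and internal Dmkn starts, and 81 bases before the Krtdap start. Of the 11 start windows in the table for the 8 genes, 5 held it, of which 2 are Dmkn starts that overlap by all but 2 bases. Among all 32851 RefSeq start windows of this length, 6.75% held it. The windows of Casp14 and Tgm5 held no match, nor did those of Tgm1, Tgm3 and Abca12.

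Other motifs were searched on both strands of the same windows. AACNNGTT, bound by Grhl factors, had 0 matches in the 11 windows against 3.64% of all windows. TTGCNNAA, a C/EBP motif, was in 5 of 11 against 9.56%, in all Dmkn windows, Sbsn and Tgm3. CCNCNCCC, a Klf motif, was in 7 of 11 against 45.9% of all. TATAAA was in 2 of 11 against 12.4%, 30 bases before the Krtdap start and 28 before the Tgm3 start. The p53 family motif was in the Abca12 window alone, against 7.13% of all. The motifs were chosen with earlier results of these data known, and a match is a description of the letters.

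Depth was 25570212 to 49786332 counts per sample in peaks of chromosomes 1 to 14, where all 8 genes lie, and levels are CPM, counts scaled by the TMM-adjusted total of these peaks. The share of counts inside peaks ran from 21.3% in the HF single-end run to 51.1% in the paired-end run of Lgr5 Epcam+ sample 1. Follicle markers followed the labels: 4 of 8 (Tbx1, Lgr5, Lhx2 and Fgf18) were higher in HF than IFE by the rule of size given below, and the summed level of the list was 1642 CPM in HF and 852 in IFE. The suprabasal keratinocyte list was highest in IFE, at 1038 CPM, and lowest in Lgr5 Epcam-, at 261 CPM. No marker gene was at 0 in any sample, and counts outside peaks were 25.2 to 40.4 per kb.

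Tgm1 makes the membrane-bound transglutaminase of the cell envelope, and its 6 peaks summed to 25.9 CPM in HF, 27.5 in IFE, 40.9 in K14 Epcam+, 80.6 (sample 1) and 28.2 (sample 2) in Lgr5 Epcam+, and 10.5 in Lgr5 Epcam-. The 2 Lgr5 Epcam+ samples differed by 1.51 on the log2 scale, more than any neighbours in the order of the 6 samples. Tgm3, whose enzyme acts late in the epidermis and in the hair follicle, stood at 94.1 CPM in HF, 202 in IFE, 86.2 in K14 Epcam+, 158.0 (sample 1) and 87.9 (sample 2) in Lgr5 Epcam+ and 44.1 in Lgr5 Epcam-. IFE was highest and Lgr5 Epcam- lowest, and the gap above Lgr5 Epcam- was the only one between neighbours larger than the 0.85 that separated the Lgr5 Epcam+ pair.

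Tgm5, a transglutaminase of the upper epidermis, was a normal-tissue gene in these samples: 133 CPM in HF, 64.7 in IFE, 17.5 in K14 Epcam+, 16.3 (sample 1) and 20.1 (sample 2) in Lgr5 Epcam+, and 27.9 in Lgr5 Epcam-. All 4 tumour samples lay below both normal samples. The steps from HF to IFE, from IFE to Lgr5 Epcam- and from there to the next sample were larger than the 0.31 log2 between the Lgr5 Epcam+ pair. K14 Epcam+ lay between the 2 samples of that pair. Its peaks held 8.45 times the count density outside peaks in HF and 4.98 times in IFE, but 1.88 to 2.67 times in the tumour samples. Casp14 was highest in IFE, at 138 CPM, against 54.1 in HF, 32.0 in K14 Epcam+, 29.1 (sample 1) and 48.7 (sample 2) in Lgr5 Epcam+ and 46.1 in Lgr5 Epcam-. Below IFE no gap between neighbours exceeded the 0.74 log2 between the Lgr5 Epcam+ samples.

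Abca12 had the most peaks. It stood at 165 CPM in HF, 263 in IFE, 216 in K14 Epcam+, 451 (sample 1) and 337 (sample 2) in Lgr5 Epcam+, and 88.1 in Lgr5 Epcam-. Both Lgr5 Epcam+ samples were above all the others, but the step from sample 2 down to IFE, 0.35 log2, was under the 0.42 between the pair. The step down to Lgr5 Epcam-, the lowest, was the only one between neighbours that exceeded it. Krtdap stood at 79.3 CPM in HF, 162 in IFE, 49.96 in K14 Epcam+, 100.4 (sample 1) and 121 (sample 2) in Lgr5 Epcam+, and 14.4 in Lgr5 Epcam-. Sbsn lay between 69.4 and 107 CPM over the Epcam+ and normal samples, at 107 CPM in HF, 88.1 in IFE, 69.4 in K14 Epcam+, 88.1 (sample 1) and 76.6 (sample 2) in Lgr5 Epcam+, and 22.9 in Lgr5 Epcam-. Dmkn followed at 69.2 CPM in HF, 106 in IFE, 60.6 in K14 Epcam+, 91.0 (sample 1) and 80.1 (sample 2) in Lgr5 Epcam+, and 14.9 in Lgr5 Epcam-. For each of the 3 secreted genes the step down to Lgr5 Epcam- was the widest gap in the order. For Krtdap and Dmkn every other step apart from that between the Lgr5 Epcam+ samples also exceeded their spread (0.27 and 0.18 log2), and for Sbsn only that from HF to the next sample did (spread 0.20).

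**Figure D1:**
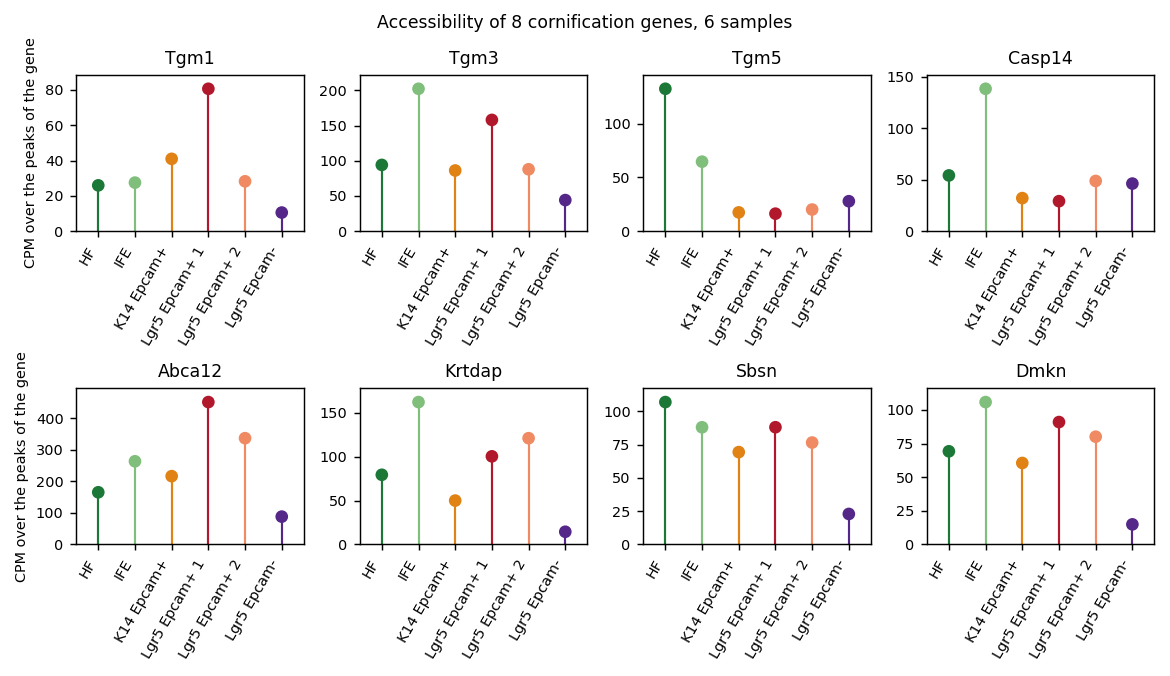
CPM summed over the peaks of each gene (vertical axis, one scale per panel) in each of the 6 samples (horizontal axis); each point is 1 sample. Tgm5 is high in the 2 normal samples alone, Casp14 peaks in IFE at 138, Abca12 is highest in the 2 Lgr5 Epcam+ samples, and Lgr5 Epcam- is lowest for 6 genes, all but Tgm5 and Casp14.

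**Figure D2:**
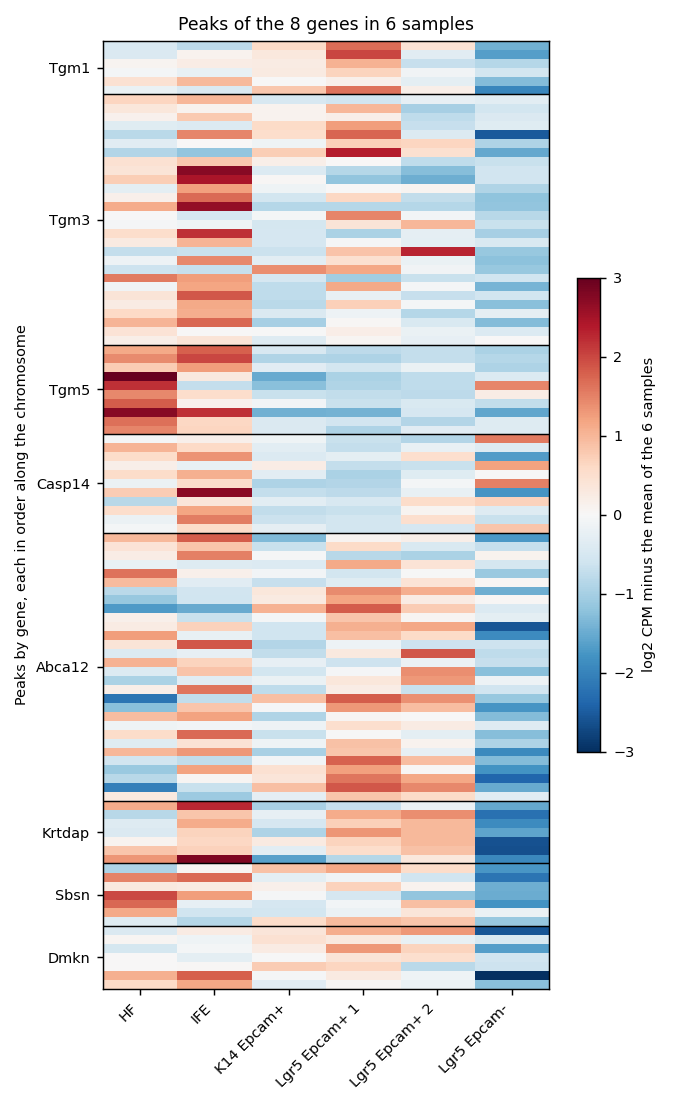
log2 CPM of each of the 106 peaks (rows, by gene and in order along the chromosome) minus the peak's mean over the 6 samples (columns); red is above the mean and blue below. Peaks of 1 gene differ among themselves, as in Abca12, where some peaks are highest in IFE and others in Lgr5 Epcam+, and Lgr5 Epcam- is blue at most Krtdap, Sbsn and Dmkn peaks.

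Normal follicle and normal interfollicular epidermis, with 1 sample each, were compared by a rule of size that needs a log2 ratio of at least 1 for a gene (2 for a peak) and at least 0.5 (1 for a peak) in the same direction in each run. Casp14, Krtdap and Tgm3 were lower in HF than in IFE, and Tgm5 was higher. The log2 ratios were -1.35 for Casp14 (95% counting interval -1.44 to -1.27), -1.10 for Tgm3 (-1.17 to -1.04), -1.03 for Krtdap (-1.10 to -0.96) and 1.03 for Tgm5 (0.95 to 1.12). Abca12 at -0.67, Dmkn at -0.61, Sbsn at 0.28 and Tgm1 at -0.08 did not pass. Across all 18109 genes 1.76% passed as higher in HF and 3.25% as lower. HF and IFE have no replicates, and the intervals are exact binomial ones that cover counting error only. The 2 Lgr5 Epcam+ samples, held to these limits, gave 3.01% of all genes as higher in sample 1 and 2.21% as lower. Among the 8 members only Tgm1 did so, at 1.51. These shares are near those between HF and IFE, so passing alone does not set a gene apart from the spread between replicates. Krtdap, Tgm3 and Tgm5 sit at the limit. Krtdap and Tgm3 no longer passed with total-count scaling (-0.90 and -0.97), and in the single-end run alone only Casp14 did.

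Single peaks carried part of that contrast. At Tgm5, peak 4 (chr2:121068544-121069759, inside the gene, 16.7 kb from its start) held 44.7 CPM in HF and 5.42 in IFE, against 1.55 to 3.32 in the 4 tumour samples. Tgm5 peak 5, beside it, held 17.7 CPM in HF and 2.33 in IFE. They were the 2 member peaks that passed as higher in HF, with log2 ratios of 3.03 and 2.89, where 1.72% of all peaks did. The 4 that passed as lower, where 0.749% of all did, were peaks 5 and 9 of Tgm3 and peaks 20 and 27 of Abca12, with ratios from -2.07 to -2.32. Tgm3 peak 5, upstream of the gene, held 6.48 CPM in HF and 31.1 in IFE. The Casp14 start peak (peak 7, chr10:78717183-78718666) held 19.5 CPM in HF and 75.5 in IFE, the largest level of any of the 9 start peaks. A start peak is one that overlaps the window from 250 bases before to 50 bases after an annotated start.

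**Figure D3:**
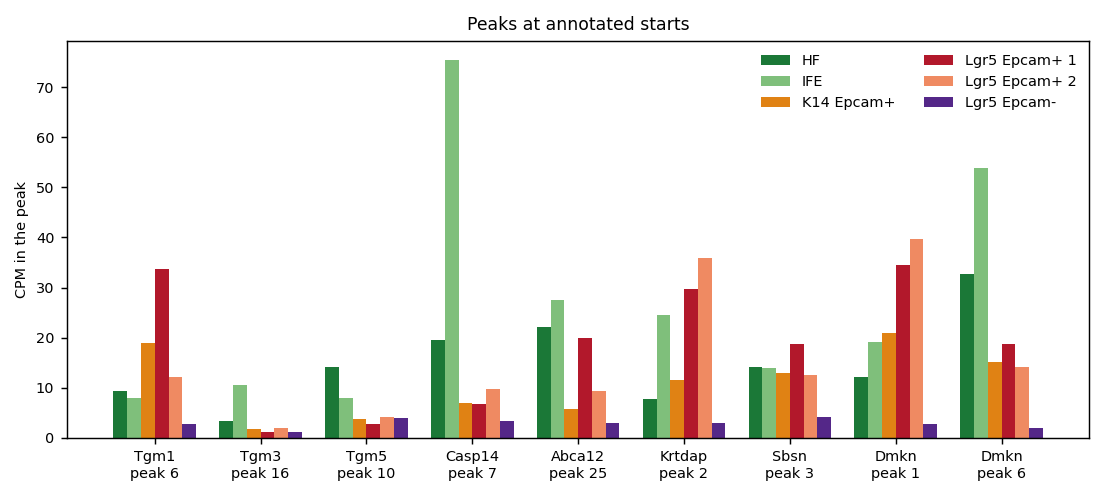
CPM (vertical axis) of the 9 peaks that overlap the window around an annotated start of the 8 genes, with 1 bar per sample. The Casp14 bar of IFE reaches 75.5, the Krtdap start and the first Dmkn start are highest in the 2 Lgr5 Epcam+ samples, and the internal Dmkn start is highest in IFE.

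Against IFE, the K14 Epcam+ tumour had lower accessibility at Casp14, Tgm5, Krtdap and Tgm3. Log2 ratios were -2.11 for Casp14 (95% counting interval -2.21 to -2.01), -1.89 for Tgm5 (-2.03 to -1.75), -1.70 for Krtdap (-1.78 to -1.62) and -1.23 for Tgm3 (-1.30 to -1.17). Tgm1 at 0.57, Dmkn at -0.80, Sbsn at -0.34 and Abca12 at -0.28 did not pass the rule. Of all genes 9.38% passed as higher and 8.54% as lower in this pair of single samples. Mesenchymal markers moved with the contrast, 6 of 8 passing as higher (summed level 342 CPM in IFE and 717 in K14 Epcam+), as did 3 of 9 immune and 3 of 8 endothelial markers, with 2 of each lower; their part in the result was not tested. At the level of peaks 21 of 106 passed as lower and 2 as higher, where 5.97% and 7.42% of all peaks did.

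The 21 lower peaks included the start peaks of Casp14, which held 75.5 CPM in IFE and 7.02 in the tumour, and of Tgm3, which held 10.6 and 1.64. The lowest ratio, -4.39, was at Krtdap peak 7 (chr7:30803918-30804984, 16.55 kb downstream of the start), which fell from 49.8 CPM in IFE to 2.31; it was named after its values were seen. Tgm5 peak 8, also named so, stood at 15.7 CPM in IFE and 1.26 in the tumour. The 2 higher peaks were inside Abca12 and Tgm3: Abca12 peak 9 stood at 3.70 CPM in IFE and 21.8 in K14 Epcam+, a log2 ratio of 2.54, and Tgm3 peak 20 at 2.26 and 9.69, a ratio of 2.07.

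The Lgr5 Epcam+ tumours were compared with HF, the tissue of their labelled origin, by edgeR's quasi-likelihood test over all 18107 genes and 177238 peaks tested, with Benjamini-Hochberg adjustment. Tgm5 fell, with a log2 ratio of -2.87 ± 0.29 (SE, 2 samples against 1, adjusted p = 0.0068), and both tumour samples were below HF. No other member passed. Abca12 was higher in both samples at 1.25 ± 0.36 (adjusted p = 0.060 with edgeR). It passed with DESeq2 (adjusted p = 0.0055), with samples centred in 10 Mb windows (adjusted p = 0.017) and in the single-end run alone (adjusted p = 0.043). Those settings passed more of all genes as higher, 1896, 2480 and 1579 in that order, in place of 1042. Tgm1 was 1.07 ± 0.54, a value that came from sample 1: without it the ratio was 0.12. The rest ranged from -0.48 ± 0.34 for Casp14 to 0.48 ± 0.31 for Krtdap. Among them Tgm3, at 0.39 ± 0.39, was -0.098 without sample 1 and 0.75 without sample 2. Of all genes 5.75% passed as higher and 2.57% as lower, beside 0 and 1 of the 8 members, and the median over the 8 was 0.35 against 0.22 over all genes. The share of counts in peaks moved with this contrast, from 21.3% and 27.5% in the HF runs to 38.6% to 51.1% in the Lgr5 Epcam+ runs, as did 6 of 8 mesenchymal markers, all higher (summed level 384 CPM in HF, 894 and 979 in Lgr5 Epcam+). Of the 8 follicle stem cell markers 3 fell (summed level 1642 CPM in HF, 896 and 964 in Lgr5 Epcam+); their part in the result was not tested. The test has 1 residual degree of freedom, from the Lgr5 Epcam+ pair, and each single sample is assumed to vary as that pair does. The spread used for a gene is drawn toward that of all genes tested, so its p-value does not rest on its own pair of values alone.

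Below the gene level the Lgr5 Epcam+ tumours differed from HF at 27 of the 106 peaks, 11 higher and 16 lower, where 9.3% of all peaks passed as higher and 7.41% as lower. Tgm5 had 9 of the lower peaks among its 10. The largest change of these was at peak 4, from 44.7 CPM in HF to 2.28 and 2.61 (log2 ratio -4.19 ± 0.54, adjusted p = 0.000315). The start peak, peak 10, fell from 14.1 CPM to 2.69 and 4.06 (-2.07 ± 0.56, adjusted p = 0.022). With total-count scaling 10 member peaks passed as higher and 22 as lower, with loess scaling 4 and 13, and with DESeq2 13 and 10. Calls over all peaks shifted as well, from 16490 higher and 13134 lower to 14070 and 22995 with total counts, 7692 and 11392 with loess, and 17620 and 7141 with DESeq2.

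Abca12 had 6 of the 11 higher peaks. Peak 19 (chr1:71395719-71396892, inside the gene) held 3.86 CPM in HF, 10.5 in IFE, 32.7 in K14 Epcam+, 61.8 (sample 1) and 45.4 (sample 2) in Lgr5 Epcam+ and 8.01 in Lgr5 Epcam-. Its ratio against HF was 3.79 ± 0.41 (adjusted p = 0.00013 with edgeR). Peak 29, 46.2 kb upstream of the Abca12 start, held 4.24 CPM in HF, 11.1 in IFE, 33.0 in K14 Epcam+, 64.3 (sample 1) and 47.4 (sample 2) in Lgr5 Epcam+ and 6.17 in Lgr5 Epcam- (3.72 ± 0.40, adjusted p = 0.00013 with edgeR). Both peaks were higher in the 3 Epcam+ tumour samples than in the other 3. The Abca12 start peak, peak 25, overlaps the window before the start but not the start itself. It showed another order, at 22.1 CPM in HF, 27.4 in IFE, 5.68 in K14 Epcam+, 19.9 (sample 1) and 9.43 (sample 2) in Lgr5 Epcam+ and 2.97 in Lgr5 Epcam-, and did not pass against HF. Abca12 peak 5 was the 1 Abca12 peak that fell (-1.89 ± 0.57, adjusted p = 0.035 with edgeR), a call lost with DESeq2, with loess scaling and in the paired-end run.

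The other members had few changed peaks. The Krtdap start peak rose from 7.65 CPM in HF to 29.7 and 35.9 (2.10 ± 0.44, adjusted p = 0.0051 with edgeR). The first Dmkn start (peak 1, chr7:30762899-30764011) rose from 12.03 CPM to 34.6 and 39.6 (1.62 ± 0.39, adjusted p = 0.011 with edgeR). The internal Dmkn start (peak 6, chr7:30775650-30776806) stood at 32.7 CPM in HF and 18.8 and 14.2 in Lgr5 Epcam+, below HF in both and not past the test; with total-count or loess scaling or the paired-end run alone it passed as lower, at -1.33, -1.84 and -1.26. Loess scaling ended the calls of the Krtdap start peak and of the first Dmkn start, at 1.21 and 0.81. Sbsn had 1 higher peak, peak 7 downstream of the gene (1.25 ± 0.40, adjusted p = 0.045 with edgeR), a call that 5 of the alternatives ended, and 2 lower ones inside it: peak 4 went from 13.6 CPM to 2.42 and 1.51 (-2.79 ± 0.57, adjusted p = 0.0049 with edgeR). The Casp14 start peak fell from 19.5 CPM to 6.70 and 9.78 (-1.24 ± 0.38, adjusted p = 0.036 with edgeR), not past the test with DESeq2. Tgm3 had 2 higher and 3 lower peaks; its peak 7 rose from 2.24 CPM to 21 and 5.74, a ratio of 2.58 ± 0.81 (adjusted p = 0.041 with edgeR) that was 1.36 without sample 1 and was not past the test under 4 alternatives.

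**Figure D4:**
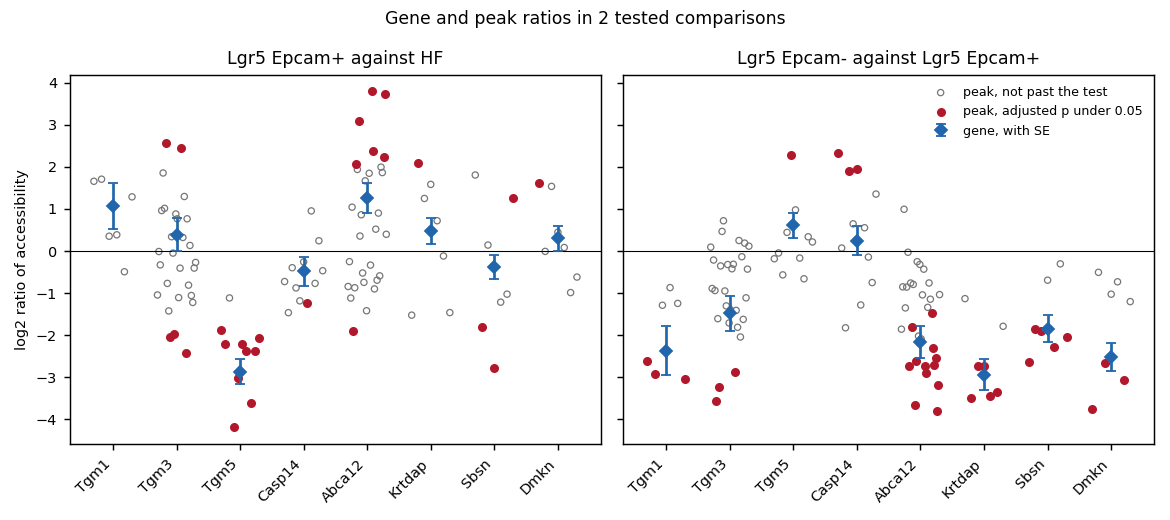
log2 ratios of the 8 genes (diamonds with SE) and of their peaks (circles; filled where the adjusted p was under 0.05) for Lgr5 Epcam+ against HF (left) and Lgr5 Epcam- against Lgr5 Epcam+ (right). Left, 9 of 10 Tgm5 peaks are filled below 0 and Abca12 reaches 3.79; right, 31 filled peaks lie below 0 and 4 above.

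In Lgr5 Epcam- cells against Lgr5 Epcam+ cells of the same Cre line, Krtdap, Dmkn, Abca12 and Sbsn fell. Log2 ratios were -2.94 ± 0.36 for Krtdap (SE, 1 sample against 2, adjusted p = 0.010), -2.52 ± 0.34 for Dmkn (adjusted p = 0.015), -2.16 ± 0.38 for Abca12 (adjusted p = 0.022) and -1.84 ± 0.33 for Sbsn (adjusted p = 0.023), by the same edgeR test, and Lgr5 Epcam- lay below both Lgr5 Epcam+ samples for each. These 4 calls were kept under every tested alternative. The count was 4 lower and 0 higher of 8, where 2.15% of all genes passed as lower and 1.89% as higher, and the median over the 8 was -2.0 against -0.11 over all genes.

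Tgm1 at -2.37 ± 0.58 (adjusted p = 0.055) and Tgm3 at -1.48 ± 0.41 (adjusted p = 0.081) were lower in Lgr5 Epcam- but did not pass edgeR's test. With DESeq2 both did, at adjusted p = 0.0012 and 0.013, where 812 of all genes passed as lower, in place of 389. Without Lgr5 Epcam+ sample 1 the Tgm1 ratio was -1.42. Casp14 at 0.25 ± 0.35 and Tgm5 at 0.62 ± 0.30 did not pass. The sign of Casp14 turned without Lgr5 Epcam+ sample 1 (-0.078), and without sample 2 its ratio was 0.67.

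Of the 106 peaks 31 fell and 4 rose, where 5.45% and 6.57% of all peaks did. With DESeq2 30 fell and 1 rose, and with loess scaling 25 and 2. Calls over all peaks shifted as well, from 9666 lower and 11636 higher to 9371 and 5100 with DESeq2, and 6337 and 7900 with loess. The falling peaks were 12 of Abca12, 5 of 7 at Krtdap, 5 of 7 at Sbsn, 3 of 7 at Dmkn, 3 of 6 at Tgm1 and 3 of 28 at Tgm3. The first Dmkn start fell from 34.6 and 39.6 CPM to 2.73 (-3.76 ± 0.45, adjusted p = 0.00048 with edgeR). The internal Dmkn start fell from 18.8 and 14.2 CPM to 1.96 (-3.07 ± 0.43, adjusted p = 0.0012 with edgeR), and the Krtdap start from 29.7 and 35.9 CPM to 2.91 (-3.49 ± 0.48, adjusted p = 0.0010 with edgeR). Abca12 peak 28, upstream of the gene, fell from 29.3 and 21.7 CPM to 1.84 (-3.79 ± 0.59, adjusted p = 0.0021 with edgeR). The Tgm1 start peak fell from 33.7 and 12.2 CPM to 2.79 (-3.04 ± 0.66, adjusted p = 0.010 with edgeR), although the gene did not pass.

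The 4 peaks that rose were at Casp14 and Tgm5. Casp14 peak 1, 51.8 kb downstream of its start, held 1.34 and 1.16 CPM in Lgr5 Epcam+ and 6.32 in Lgr5 Epcam-, where HF had 2.07 and IFE 2.37 (2.33 ± 0.56, adjusted p = 0.016 with edgeR, 0.051 with DESeq2). Casp14 peaks 4 and 6 also rose, while its start peak went from 6.70 and 9.78 CPM to 3.38. Tgm5 peak 5 rose from 2.05 and 2.29 CPM to 10.6 (2.29 ± 0.56, adjusted p = 0.017 with edgeR), a level between IFE at 2.33 and HF at 17.7.

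Cell-type markers moved with this contrast. Of the 8 fibroblast markers 5 were higher in Lgr5 Epcam- (Col1a2, Col3a1, Pdgfrb, Col1a1 and Dcn) and their summed level was 956 CPM, against 280 to 437 in the other samples. Of the 8 epithelial markers 6 fell, with a summed level of 542 CPM in Lgr5 Epcam- and 1577 to 2121 elsewhere. Among the 6 was Epcam at -2.32, whose protein the groups were sorted on, so it is no independent marker here. Of the 8 basal keratinocyte markers 2 fell, and of the 8 follicle stem cell markers 1. None of the immune, endothelial or mesenchymal markers passed in either direction, with a median log2 ratio of 0.49 for the 8 mesenchymal ones. The part of all these markers in the result was not tested. In sorted bulk samples fewer cells of a type and less open chromatin per cell cannot be told apart. In Lgr5 Epcam- 72 of the 106 peaks lay under 2 times the count density outside peaks, against 18 to 41 in the other samples. The share of all peaks under this limit was not computed, so the count does not set the members apart.

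Lgr5 Epcam- was also below HF, its labelled tissue of origin, at 6 of the 8 genes by the rule of size: Krtdap at -2.45, Tgm5 at -2.25, Sbsn at -2.22, Dmkn at -2.21, Tgm1 at -1.30 and Tgm3 at -1.09. Abca12 at -0.91 and Casp14 at -0.23 did not pass, and none of the 8 passed as higher, where 11.8% of all genes passed as higher and 7.37% as lower. By peaks 25 of 106 passed as lower and 0 as higher, where 6.59% and 7.51% of all peaks did. Krtdap, Sbsn and Dmkn were thus low against both HF and Lgr5 Epcam+, whereas Tgm5 was low against HF alone. The 2 comparisons share the Lgr5 Epcam- sample. Against HF all 8 fibroblast and all 8 mesenchymal markers passed as higher, and 6 of 8 epithelial and 4 of 8 basal keratinocyte markers as lower; their part in the result was not tested.

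The Epcam+ tumours of the 2 origins were compared directly, with 2 samples against 1. All 8 genes were higher on average in Lgr5 Epcam+ than in K14 Epcam+, from 0.06 ± 0.30 for Tgm5 to 1.15 ± 0.32 for Krtdap, the direction of Tgm5 being turned with total-count and loess scaling and in the single-end run. Without Lgr5 Epcam+ sample 1 the ratio of Tgm1 was -0.54, and without sample 2 those of Casp14 and Tgm5 were -0.14 and -0.10. No gene and no peak of the 106 passed edgeR's test, with an adjusted p of 0.92 for Krtdap. At an unadjusted p under 0.05 stood 2 of the 8 genes and 15 of the 106 peaks, where 645 of 18107 genes and 8259 of 177238 peaks did, and DESeq2 called 0 member genes and 0 member peaks. The median over the 8 was 0.45, against 0.17 over all genes. Of all genes 0.011% and of all peaks 0.00508% passed. In the single-end run alone Krtdap passed (1.09, adjusted p = 0.040 with edgeR), but there 1866 of all genes passed as higher and 104 as lower.

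Whether the change from normal tissue to Epcam+ tumour differed between the origins was tested as (Lgr5 Epcam+ minus HF) minus (K14 Epcam+ minus IFE). No member gene or peak passed, with 0.0% of all genes and 0.000564% of all peaks doing so. The estimates were 2.18 ± 0.48 for Krtdap, 1.63 ± 0.54 for Casp14, 1.62 ± 0.60 for Tgm3, 1.54 ± 0.52 for Abca12, 1.11 ± 0.45 for Dmkn, 0.50 ± 0.79 for Tgm1, -0.03 ± 0.45 for Sbsn and -0.98 ± 0.46 for Tgm5, with an adjusted p of 0.78 for all but Tgm1 and Sbsn (0.85 and 0.98) by edgeR. Without Lgr5 Epcam+ sample 1 the value of Tgm1 was -0.45, and without sample 2 that of Sbsn was 0.06. At an unadjusted p under 0.05 stood 5 of the 8 genes and 27 of the 106 peaks, where 1001 of 18107 genes and 10973 of 177238 peaks did, and DESeq2 called 0 members. The median over the 8 was 1.32, against 0.35 over all genes.

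The neighbouring genes Sbsn, Dmkn and Krtdap shared the fall in Lgr5 Epcam- but not the pattern of their peaks over the other samples. In HF the highest of the 21 peaks was Sbsn peak 2 (chr7:30749574-30750719), at 37.0 CPM, and in IFE the internal Dmkn start, at 53.9. In the 2 Lgr5 Epcam+ samples it was the first Dmkn start, at 34.6 and 39.6 CPM, and in K14 Epcam+ Sbsn peak 7, at 24.4. Sbsn peak 2 stood at 43.2 CPM in IFE, 10.7 in K14 Epcam+, 12.3 (sample 1) and 8.79 (sample 2) in Lgr5 Epcam+ and 2.91 in Lgr5 Epcam-, with both normal samples above the 4 tumour samples. Sbsn peak 7, by contrast, held 12.96 CPM in HF, 9.23 in IFE, 32.1 and 29.7 in Lgr5 Epcam+ and 7.50 in Lgr5 Epcam-, with all 3 Epcam+ tumours above both normal samples. The Sbsn start peak itself varied little outside Lgr5 Epcam-, from 12.5 to 18.7 CPM. The summed level of Sbsn therefore hid opposite moves of its peaks. At Krtdap, peak 7 stood at 17.8 CPM in HF and 49.8 in IFE against 1.87 to 8.99 in the tumours, whereas peak 5 kept 16 to 29.1 CPM in all samples but Lgr5 Epcam-, at 2.43.

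**Figure D5:**
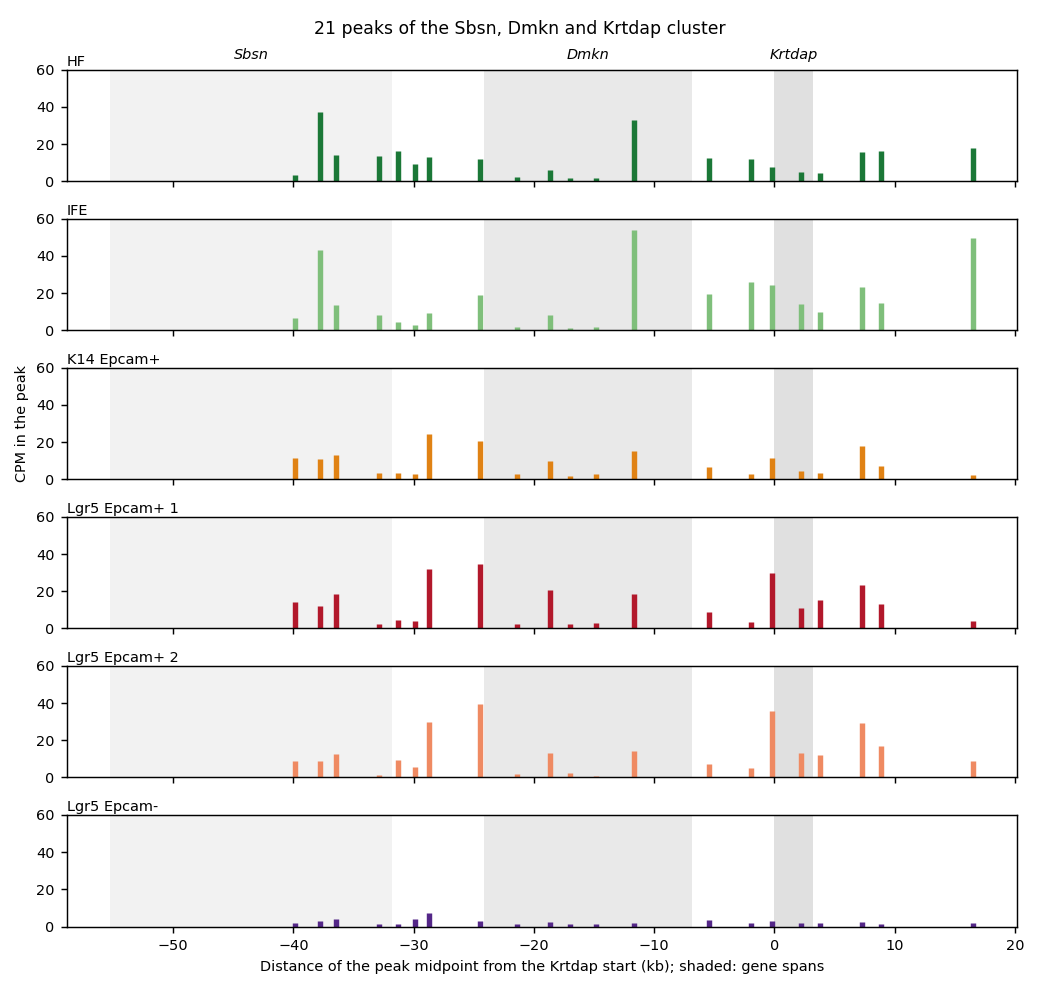
CPM (vertical axis, 0 to 60 in each panel) of the 21 peaks of Sbsn, Dmkn and Krtdap against the distance of the peak's midpoint from the Krtdap start (horizontal axis, kb), 1 panel per sample; shading marks the gene spans. The highest peak differs between panels, from Sbsn peak 2 at 37.0 in HF and the internal Dmkn start at 53.9 in IFE to the first Dmkn start at 34.6 and 39.6 in Lgr5 Epcam+, and Lgr5 Epcam- stays at or below 7.50.

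Related genes of the same programme were followed in 6 lists, whose counts are to be read beside the shares of all genes. In HF against IFE 1.76% of all genes passed as higher and 3.25% as lower, and in K14 Epcam+ against IFE 9.38% and 8.54%. Against HF 5.75% passed as higher in Lgr5 Epcam+ and 2.57% as lower. In Lgr5 Epcam- against Lgr5 Epcam+ the shares were 1.89% and 2.15%. Among 5 further transglutaminase genes, Tgm2, the widely expressed tissue transglutaminase, rose in Lgr5 Epcam+ against HF (2.07 ± 0.34, adjusted p = 0.012 with edgeR) and was higher in K14 Epcam+ than IFE (2.14), opposite to Tgm5. Tgm4 (1.85) and F13a1 (1.25) also passed as higher in K14 Epcam+. In Lgr5 Epcam+ against HF, Tgm7 stood at -0.92 ± 0.34, past the test only with total-count or window scaling. The counts were 1 of 5 higher in Lgr5 Epcam+ and 3 of 5 higher in K14 Epcam+, with none lower.

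Barrier lipid genes, 20 in number, had 6 lower in HF than IFE, among them the ceramidase Acer1 (-1.67), Nipal4 (-1.60) and the lipase Lipn (-1.35), and 5 lower in K14 Epcam+ than IFE, led by Acer1 (-2.52) and Pnpla1 (-1.53); none was higher in either. None passed in Lgr5 Epcam+ against HF, where Nipal4 stood at 1.24 ± 0.34 (adjusted p = 0.053 with edgeR, and past the test with DESeq2). In Lgr5 Epcam- 3 fell against Lgr5 Epcam+: Nipal4 (-1.99 ± 0.35), Sdr9c7 (-1.65 ± 0.34) and Pnpla1 (-1.46 ± 0.34). Sdr9c7 and Pnpla1 did not pass in the paired-end run. The median of the list there was -0.46.

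Proteases and inhibitors of desquamation, the shedding of dead cells, numbered 16. The kallikreins Klk6 (2.45 ± 0.35), Klk8 (2.10 ± 0.35) and Klk7 (2.05 ± 0.37) rose in Lgr5 Epcam+ against HF, at adjusted p of 0.010 to 0.016 with edgeR, and none of the list fell. Against Lgr5 Epcam+ Klk6 (-2.55 ± 0.35), Klk8 (-2.37 ± 0.35) and Klk7 (-2.44 ± 0.38) fell in Lgr5 Epcam-, and 4 of 16 fell in all. The 2 comparisons share the Lgr5 Epcam+ samples. In K14 Epcam+ against IFE, 2 of the 16 were higher, led by Klk6 (1.503), and 2 were lower, Klk5 (-1.86) and the serpin Serpinb12 (-1.64). These counts were near the shares of all genes, 9.38% higher and 8.54% lower.

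Of 14 genes listed for the cornified envelope and keratohyalin, Sprr1b, a small proline-rich envelope protein, rose in Lgr5 Epcam+ against HF (2.68 ± 0.44) and was higher in K14 Epcam+ than IFE (2.07). Pou2f3, a transcription factor of the same list, fell or was lower in both, at -1.63 ± 0.30 and -1.74. In Lgr5 Epcam- against Lgr5 Epcam+ 3 fell, Sprr1b (-1.83 ± 0.42), involucrin (Ivl, -1.65 ± 0.32) and repetin (Rptn, -1.41 ± 0.32), and 0 rose. None of these 3 passed in the paired-end run, nor Ivl and Rptn with peaks within 10 kb. None of the 14 passed between HF and IFE.

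The suprabasal list of 10 genes had 4 lower in HF than IFE, 6 lower in K14 Epcam+ than IFE and 4 that fell in Lgr5 Epcam- against Lgr5 Epcam+. The differentiation keratins Krt1 (-2.90), Krt10 (-2.51) and Krt77 (-3.09) were among those lower in K14 Epcam+, and Ly6d (-2.55 ± 0.52), Calm4 (-2.36 ± 0.32) and Lypd3 (-1.65 ± 0.32) among those that fell in Lgr5 Epcam-. None passed in Lgr5 Epcam+ against HF, where the desmosomal cadherin gene Dsg1a stood at -1.57 ± 0.42 (adjusted p = 0.0501 with edgeR, and past the test in 8 of the alternatives). Ly6d did not pass in Lgr5 Epcam- in the paired-end run. Of 18 regulators of differentiation, Zfp750 rose in Lgr5 Epcam+ against HF (1.38 ± 0.37, adjusted p = 0.049 with edgeR). That call was lost with total-count or loess scaling, in the paired-end run and with all runs summed. Zfp750 (-2.13 ± 0.39) fell in Lgr5 Epcam- against Lgr5 Epcam+, a call lost in the paired-end run, and Ovol1 (-2.11 ± 0.63) and Grhl3 (-1.499 ± 0.41) did not pass with edgeR but did with DESeq2.

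The 5 genes outside the 8 whose levels most resembled the members' mean profile over the 6 samples, among 9048 genes of above-median level, were Agmat (Pearson r = 0.994), Cdkl2 (0.993), Dhx15 (0.991), Ctnnb1 (0.990) and Zfp597 (0.990). The mean profile, in log2 units about each gene's mean, was 0.30 in HF, 0.74 in IFE, -0.23 in K14 Epcam+, 0.35 (sample 1) and 0.12 (sample 2) in Lgr5 Epcam+ and -1.28 in Lgr5 Epcam-. With 6 samples that share peak set and scaling, such values are a description only. Agmat ranged from 25.7 CPM in Lgr5 Epcam- to 89.0 in IFE.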

How the data were processed

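ATAC-seq counts of 6 samples in 12 runs were analysed. Per the labels' protocols, libraries were made with the Nextera kit from sorted cells. Per the submitters' processing notes, Bowtie2, HOMER, bedtools and HTSeq were used with mm10; the sources used here do not give their versions and roles. The deposited files hold HTSeq raw counts per peak and 1 peak list for all samples. The other deposited values are peak starts and ends in bases. The 2 runs of a sample were summed on chromosomes 1 to 14; from chromosome 15 the paired-end run alone was used. The 8 genes lie on chromosomes 1 to 14.

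Peaks were given to RefSeq genes (GRCm38.p6) within 50 kb and summed per gene. edgeR 4.0.16 (quasi-likelihood, TMM, minimum count of 10, adjusted p under 0.05 over all features) tested 4 comparisons in 1 fit of 6 samples and 5 groups; 3 comparisons of single samples used the rule of size, with a prior count of 2. The spread between the 2 Lgr5 Epcam+ samples was also sized by the limits of that rule. The procedure was tested on simulated data. Alternatives were total-count, loess and 10 Mb window scaling, DESeq2 1.42.0, no filter, each run alone, all runs summed, a 10 kb distance, lower limits (0.75 for genes, 1 for peaks) and each Lgr5 Epcam+ sample left out. Named were all 8 genes, their start peak, highest peak and the largest called peak in each direction, and per list up to 3 passing and 2 other genes of largest ratio. Krtdap peak 7, Sbsn peak 2, Tgm5 peak 8, Tgm3 peaks 9 and 20, Abca12 peaks 9, 20 and 27 and Casp14 peaks 4 and 6 were named after their values were seen. Members, lists and motifs were chosen with earlier results of these data known. Part of the tumour genotype and 1 gene of the regulator list are not reported here.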

Additional observations from a re-analysis of the deposited data

How the results depend on the processing

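Where scaling moved all genes, the median log2 ratio of Lgr5 Epcam+ against HF was 0.22 with TMM, -0.11 with total counts and 0.01 with loess. The number of the 8 genes called in Lgr5 Epcam+ against HF, 1 as reported, was 2 with 10 Mb windows, with DESeq2 and in the single-end run, where Abca12 joined Tgm5. Of all genes 2480, 1896 and 1579 passed as higher in these settings, in place of 1042. In Lgr5 Epcam+ against K14 Epcam+ the number of the 8 called was 1 in the single-end run, where 1866 of all genes passed as higher and 104 as lower, in place of 1 and 1. In HF against IFE it was 2 with total-count scaling, 2 with loess and 1 in the single-end run, in place of 4. Of the 106 peaks, loess scaling left 17 of 27 in Lgr5 Epcam+ against HF, where 7692 of all peaks passed as higher and 11392 as lower. Total-count scaling gave 1 in the test of the difference between origins, where 15 of all peaks passed as higher and 23 as lower. In HF against IFE 10 of the 106 peaks passed in the paired-end run, 2 in the single-end run and 34 with the lower limit, in place of 6. With the lower limit 50 passed in K14 Epcam+ against IFE, in place of 23, and 51 in Lgr5 Epcam- against HF, in place of 25. For these comparisons of single samples the shares of all genes and peaks under the alternatives are not given here. Their counts therefore do not set the members apart.

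Signs turned only for values that had not passed the test. Against HF in Lgr5 Epcam+, total-count scaling gave -0.031 for Dmkn and -0.20 for Sbsn peak 3, loess -0.13 for Krtdap peak 5 and -0.82 for Sbsn peak 3, and a 10 kb distance -0.023 for Tgm3. Tgm5 in Lgr5 Epcam+ against K14 Epcam+ was -0.13 with total counts, -0.090 with loess and -0.048 in the single-end run, and Sbsn in the difference between origins was 0.028 with DESeq2. In Lgr5 Epcam- against Lgr5 Epcam+, Tgm3 peak 21 was -0.28 with loess and -0.029 in the single-end run, and Tgm3 peak 16 was 0.049 in the paired-end run. The cause was not tested. Leaving out an Lgr5 Epcam+ sample leaves no residual degree of freedom, so it gives values and no test. No paired analysis was possible because the groups compared share fewer than 2 replicate numbers: only Lgr5 Epcam+ has more than 1 sample.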
